A study of Mus musculus with 12 samples.

Results

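The genes described here make and supply cholesterol. They comprise the enzymes from acetyl-CoA to cholesterol, the proteins that sense sterols and switch these enzymes on, and the proteins that take up, move and store cholesterol. Members were taken from a list of 30 gene symbols, matched to the platform annotation by the transcript cluster with a single symbol and, where a gene had several, by the cluster of highest mean. In this way 27 of 22180 measured genes were members. Acat2, Idi1 and Soat1 had no cluster with a single symbol and were not analysed here.

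The study compared whole testes of mice at 2 weeks of age on a C57BL/6N background, with 1 array per testis and 12 arrays in all. The groups were 3 testes of Sox3-KO mice (KO), a knockout of the X-linked gene Sox3 made with CRISPR/Cas9, 3 testes of Sox3-Sox2KI mice (KI), as the labels name mice made with the same method, and 6 wild-type testes (WT), of which WT 1 to WT 3 came from KI litters and WT 4 to WT 6 from KO litters. The mice received no treatment. How many founder lines the mutants came from is not given in the sources used here. Levels are on the log2 scale of the deposited table, where a difference of 1 is a doubling. A level was compared only within a gene, and p-values set a difference between groups against the spread between these testes.

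Cells build cholesterol through mevalonate, squalene and lanosterol, and the last steps turn lanosterol into cholesterol by parallel routes. When sterols in the endoplasmic reticulum are scarce, SCAP escorts SREBP proteins to the Golgi, where they are cut to release a transcription factor that turns on most genes of the pathway, and INSIG proteins hold SCAP back when sterols are plentiful. In the testis Leydig cells use cholesterol to make testosterone, Sertoli cells take up lipid, and sterols made between lanosterol and cholesterol are known from germ cells.

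The regulatory sequence of the members is shown first, since many of them share a control system. Of the 27 measured members 21 matched the RefSeq promoter table by Entrez gene number (build GRCm38.p6, from 250 bases before to 50 bases after a transcript start), with 29 windows. Fdps, Fdft1, Sqle, Stard4, Scarb1 and Npc1 had no entry. The 2 motifs searched on both strands were TCACNCCAC, the core of a sterol response element bound by SREBP proteins, and CCAAT, bound by NF-Y, which works beside SREBP at sterol genes. They share no letters in these windows. A CCAAT was found for 19 of the 21 members (90.5%), against 41.1% of all 27025 genes in the table, and Abca1 and Scap had none. TCACNCCAC was found for 1 member (4.76%), Hmgcs1, against 1.44% of all genes. A match is a description of the letters, and genes with several windows have more chances of one. The shares over all genes were not restricted to measured genes or matched for level or number of windows. The bases just before the start are given for Hmgcs1, which held both motifs (chr13:119690101-119690350, plus strand), and for the 3 matched members whose KI arrays all lay above all KO arrays, namely Lss (chr10:76531505-76531604, plus strand), Lbr (chr1:181842402-181842501, minus strand) and Tm7sf2 (chr19:6067851-6067950, minus strand). Capitals mark CCAAT, its reverse complement ATTGG, or TCACNCCAC, and each stretch runs 5′ to 3′ and ends at the base before the start.
Hmgcs1: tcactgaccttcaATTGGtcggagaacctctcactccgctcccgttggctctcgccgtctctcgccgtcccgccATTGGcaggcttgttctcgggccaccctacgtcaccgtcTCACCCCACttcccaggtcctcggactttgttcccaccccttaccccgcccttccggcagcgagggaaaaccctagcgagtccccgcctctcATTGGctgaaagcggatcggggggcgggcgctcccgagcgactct
Lss: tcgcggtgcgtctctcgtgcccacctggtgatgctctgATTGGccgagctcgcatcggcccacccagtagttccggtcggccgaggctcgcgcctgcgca
Lbr: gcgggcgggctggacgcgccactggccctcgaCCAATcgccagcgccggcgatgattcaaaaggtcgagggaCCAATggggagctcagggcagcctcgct
Tm7sf2: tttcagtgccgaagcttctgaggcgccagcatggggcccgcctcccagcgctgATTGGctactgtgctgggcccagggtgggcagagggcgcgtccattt

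The stretch of Hmgcs1 held ATTGG at 3 places and TCACCCCAC once, 137 to 129 bases before the start. The Lss and Tm7sf2 stretches each held a single ATTGG, and that of Lbr held CCAAT at 2 places.

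The state of the tissue and of the targeted gene set the frame for the results. Sox3 was 6.57 to 6.65 in KO arrays and 7.26, 6.75 and 6.95 in KI arrays, against 7.21 to 7.36 in WT arrays. KI 1 lay within the WT range, and since probe positions within Sox3 were not used here, this value is no check of the KI label. Defining markers of testis cells were present, and several of their list means differed by genotype. The mean of 11 spermatocyte markers lay between 7.04 and 7.91 in KO arrays, 8.09 and 8.58 in KI arrays, and 7.96 and 8.96 in WT arrays, and 9 of the 11 were lower in KO testes (limma, adjusted p under 0.05). The mean of 8 Leydig markers lay between 8.60 and 8.64 in KO arrays, 7.83 and 8.61 in KI arrays, and 7.77 and 8.60 in WT arrays, with 1 of 8 higher in KO testes. The mean of 12 Sertoli markers lay between 9.71 and 9.95 in KO arrays, 9.58 and 9.74 in KI arrays, and 9.51 and 9.70 in WT arrays, with 2 of 12 higher in KO testes. By sign alone, 7 of the 8 Leydig markers were higher in KO testes and 1, Hsd3b6, lower. The marker that passed was Hsd3b1, at 0.63 above WT (limma adjusted p = 0.0388). Cyp17a1 was 1.83 and Star 1.23 above WT, and Hsd3b6 differed by -1.74 (adjusted p = 0.114, 0.217 and 0.115). WT arrays were spread widely for Star, with 9.82 in WT 5 and 9.52 in WT 6, against 7.45 to 7.97 in WT 1 to WT 4. For Cyp17a1 the same arrays had 9.99 and 10.23, against 7.56 to 8.51. The mean of 6 peritubular markers was 8.80 to 8.90 in KO arrays and 8.69 to 8.80 in KI arrays, against 8.58 to 8.76 in WT arrays. The mean of 8 spermatogonial markers was 8.67 to 8.76 in KO arrays and 8.55 to 8.68 in KI arrays, against 8.37 to 8.61 in WT arrays. These markers did not all go the same way in KO testes, with 6 higher and 2 lower. Gfra1 differed from WT by 0.70 (limma adjusted p = 0.00207) and Kit by -0.18 (adjusted p = 0.113). All KO arrays lay below the WT range for Kit, as for 4.59% of all genes. A fit with the spermatocyte marker mean as a covariate, chosen after seeing the data, is given beside some but not all of the results it moved. The KO and WT ranges of that mean do not overlap, so this fit cannot separate it fully from genotype. The part of the other marker lists in the values below was not tested. In whole testes, fewer cells of a type and less RNA per cell cannot be told apart.

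All 27 members had a mean level above 6.27, the median of all genes, and above 5.33. This second value is the 95th percentile over olfactory receptors, taken as background because they are silent in most tissues. Whether some of them are expressed in testis was not tested. The SD over the 6 WT arrays had a median of 0.11 over the members and ranged from 0.04 for Npc2 to 0.27 for Cyp51, against a median of 0.10 over genes at or above the median level and 0.14 over all genes.

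Cholesterol genes in KO testes differed from WT by less than 1.5-fold. None of the 27 members passed the test against all 6 WT testes (limma, adjusted p under 0.05), where 4.86% of all genes did, and 6 had an unadjusted p under 0.05, 4 lower and 2 higher. This was 22.2% of members, against 24.2% of all genes. Differences ran from -0.24 for Insig2 to 0.19 for Npc1, with a median of 0.09, against 0.04 over all genes. The 95% interval of every member lay within a 1.5-fold change in either direction, as it did for 85.1% of all genes. The interval of 13 members lay within 1.25-fold (48.1%, against 39.9% of all genes). All members lay above the median level, where the WT SD was smaller, and these shares were not matched for level. Of the 27 members 16 were higher in KO testes and 11 lower, a share of 59.3% higher, against 59.8% of all genes.

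**Figure D1:**
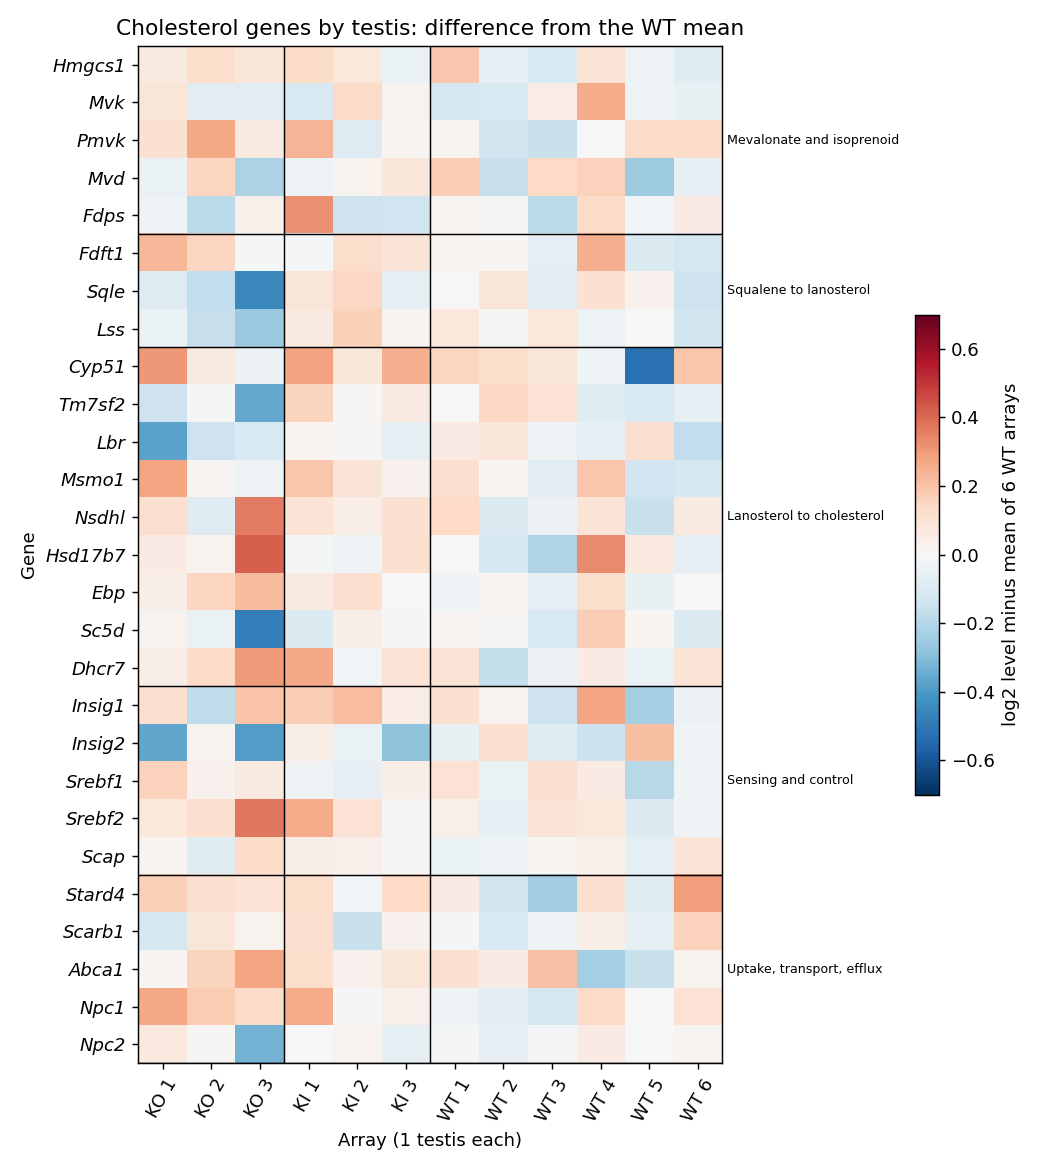
Level of the 27 cholesterol genes (rows, grouped by role) in each of the 12 testes (columns, KO and KI left of WT), as the difference from the mean of the 6 WT arrays on the log2 scale. Colours stay pale across most rows, and KO 3, with a median absolute difference of 0.20, stands out most.

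**Figure D2:**
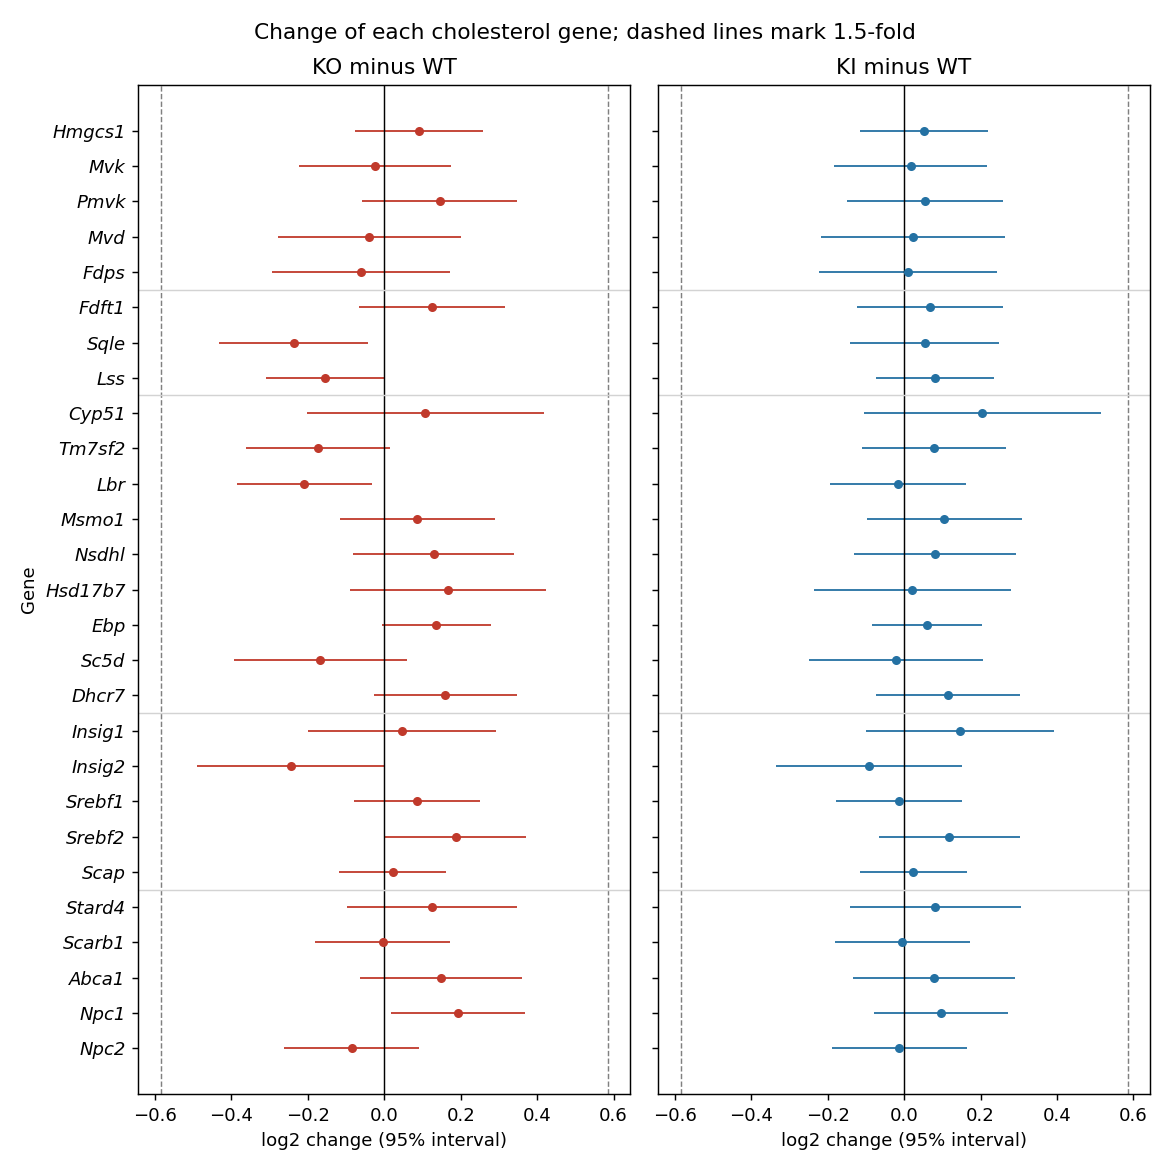
Log2 change of each member (points) with its 95% interval (lines), for KO minus WT on the left and KI minus WT on the right, from limma. No interval reaches the dashed lines at 1.5-fold, and changes run from -0.24 to 0.19 in KO testes and from -0.09 to 0.20 in KI testes.

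In KI testes the differences from WT were likewise under 1.5-fold. None of the 27 members passed against all WT testes (limma), where 0% of all genes did, and 0 members had an unadjusted p under 0.05, against 5.24% of all genes. Differences ran from -0.09 for Insig2 to 0.20 for Cyp51, with a median of 0.05, against -0.00 over all genes. The interval of 24 members lay within 1.25-fold (88.9%, against 54.5% of all genes). All 27 lay within 1.5-fold, against 92.5% of all genes. No member had all KI arrays outside the WT range, where 1.79% of all genes lay above it and 1.31% below (3.1% in all). Of the 27 members 21 were higher in KI testes and 6 lower, while 49.6% of all genes were higher. Both mutants were set against the same 6 WT testes, so these 2 comparisons share their controls.

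**Figure D3:**
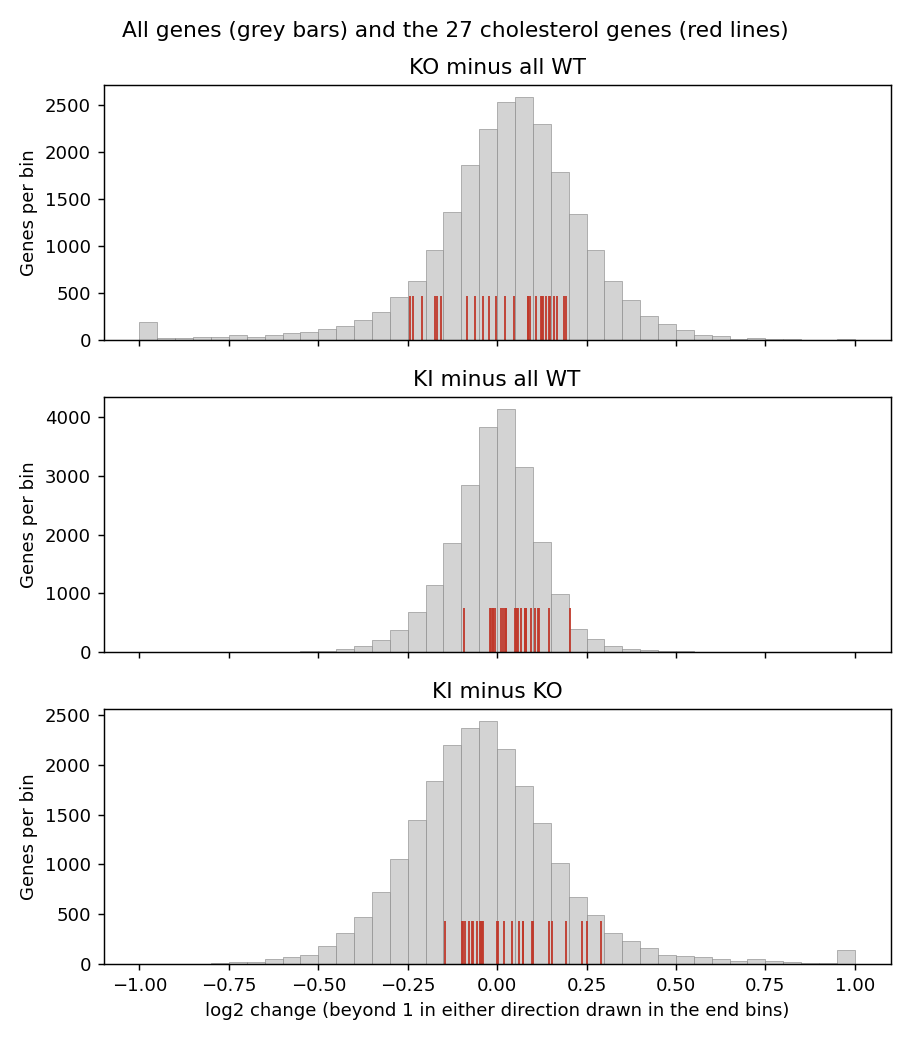
Number of genes per 0.05 of log2 change for all 22180 genes (grey bars) with the 27 cholesterol genes as red lines, for KO minus WT, KI minus WT and KI minus KO. The red lines lie in the central part of each distribution, within -0.24 and 0.29 in all 3 panels.

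KI testes also were compared with KO testes directly. None of the 27 members passed (limma), where 0% of all genes did, and 3 members had an unadjusted p under 0.05, all higher in KI. This was 11.1% of members, against 18% of all genes. With the spermatocyte covariate 0 members had an unadjusted p under 0.05 in this comparison, and 1 of all genes passed (limma). The 3 KI arrays lay above the 3 KO arrays for 4 members, Sqle, Lss, Tm7sf2 and Lbr, and below them for none. Over all genes 9.56% lay above and 12.6% below (22.1% in all), the background to the 4 of 27.

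Each mutant was set against its own 3 WT littermates as well. No member passed in KO testes (limma), where 0.00902% of all genes did, and 1 member, Abca1, had an unadjusted p under 0.05 (3.7% of members, against 15.7% of all genes). No member passed in KI testes (limma), where 0% of all genes did, and 0 members had an unadjusted p under 0.05, against 4.51% of all genes. All KO arrays lay above their littermates for 2 members, Npc1 and Srebf2, and below for none, where 10.2% of all genes lay above and 7.13% below (17.3% in all). All KI arrays lay above their littermates for 1 member, Npc1, and below for none, where 8.37% of all genes lay above and 6.07% below (14.4% in all). Between the 2 sets of WT testes no member passed (limma), where 0% of all genes did, and 1 had an unadjusted p under 0.05 (3.7% of members, against 5.29% of all genes). All KI-litter WT arrays lay above all KO-litter WT arrays for Abca1, Lss and Tm7sf2 and below them for Npc1 and Npc2, where 3.8% of all genes lay above and 7.93% below (11.7% in all).

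The early steps make mevalonate and join isoprene units. Hmgcs1, which forms HMG-CoA, was 10.63, 10.69 and 10.65 in KO arrays and 10.69, 10.64 and 10.52 in KI arrays, against a lowest, median and highest WT value of 10.46, 10.52 and 10.76. The groups overlapped fully, with a KO difference of 0.09 (SE 0.08, adjusted p = 0.517) and a KI difference of 0.05 (SE 0.08, adjusted p = 0.986). The mevalonate kinase Mvk differed by -0.02 in KO and 0.02 in KI testes, and Mvd, which makes isopentenyl diphosphate, by -0.04 and 0.02. Pmvk, which adds the second phosphate, differed by 0.15 and 0.05. Fdps, the farnesyl diphosphate synthase, differed by -0.06 and 0.01, although KI 1 had the highest value of the 12 arrays at 8.49. None of these 5 genes passed in KO or KI testes, and none of them had an unadjusted p under 0.05 in KO testes.

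The step from farnesyl diphosphate to lanosterol held the member with the lowest p both for KO against all WT (Sqle) and for KI against KO (Lss). Sqle, the squalene epoxidase and a slow step of the pathway, was 7.93, 7.84 and 7.57 in KO arrays and 8.10, 8.16 and 7.95 in KI arrays, against 7.87, 8.03 and 8.12 as the lowest, median and highest WT values. KO 1 lay within the WT range and KO 2 and KO 3 below it, while all KI arrays lay above all KO arrays. The KO difference from WT was -0.24 (SE 0.09, 95% interval -0.43 to -0.04, adjusted p = 0.132). An exact permutation test (two-sided) gave p = 0.0238. Without KO 3 the difference was -0.13, and with the spermatocyte covariate -0.14. The KI difference from KO was 0.29 (SE 0.10, adjusted p = 0.195), where the exact p of 0.1 is the smallest that 20 splits allow.

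Lss, which closes the ring of lanosterol, came next in order of the pathway. It was 7.73, 7.61 and 7.51 in KO arrays and 7.84, 7.94 and 7.79 in KI arrays, against 7.65, 7.78 and 7.85 as the lowest, median and highest WT values. KO 2 and KO 3 lay below the WT range, and KI lay above KO throughout. The KO difference was -0.16 (95% interval -0.31 to -0.00, adjusted p = 0.203) and that of KI from KO was 0.24 (95% interval 0.06 to 0.42, adjusted p = 0.187). The WT values of Lss also split by litter, with all KI-litter testes above all KO-litter testes (difference 0.10, adjusted p = 0.892), as for 3.8% of all genes. Against their own littermates KO testes differed by -0.10 (adjusted p = 0.558) and KI testes by 0.03 (adjusted p = 0.976). Over the alternatives the KI difference from KO ran from 0.15 to 0.29. Fdft1, the squalene synthase one step upstream, differed by 0.12 in KO and by 0.07 in KI testes from WT, so the 3 genes of this step did not share a direction in KO testes.

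**Figure D4:**
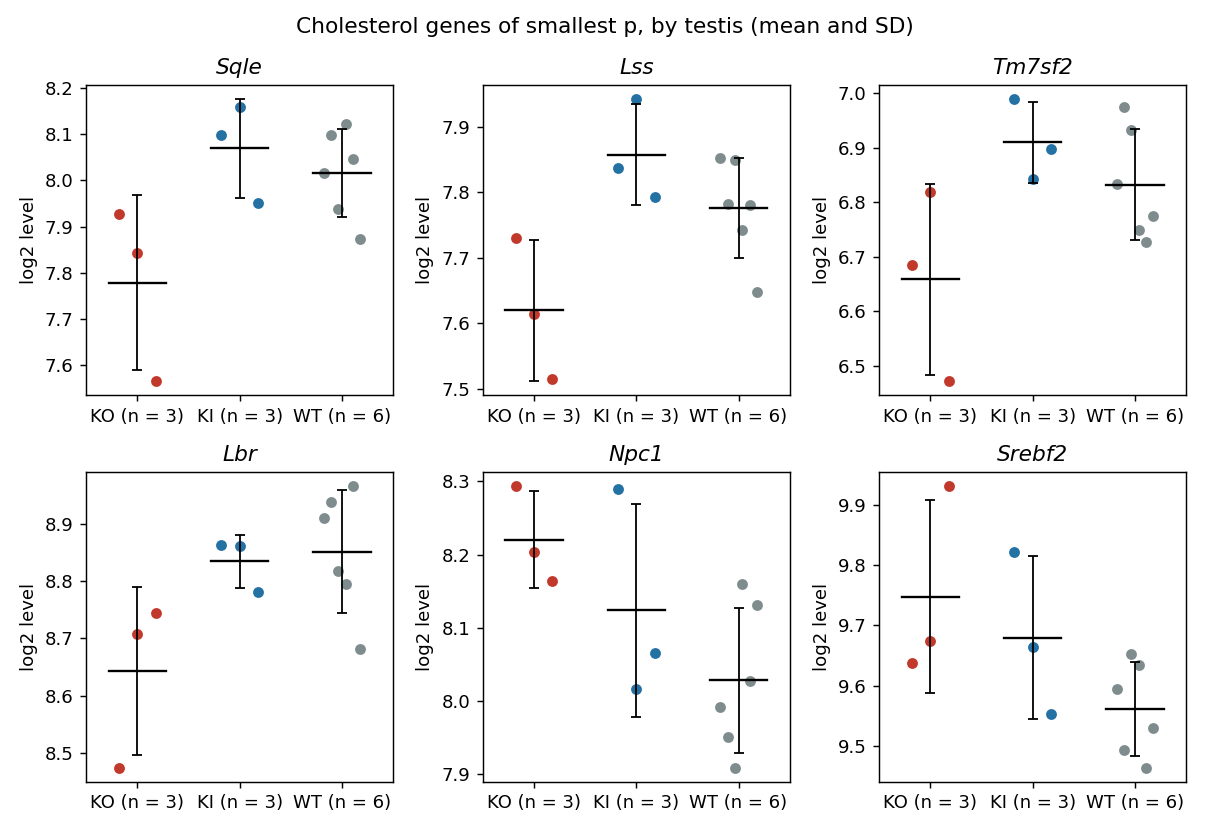
Log2 level of Sqle, Lss, Tm7sf2, Lbr, Npc1 and Srebf2 in each testis (points), with the group mean (horizontal bar) and SD (vertical bar), KO and KI left of WT. The KO mean is the lowest of the 3 group means for the first 4 genes and the highest for Npc1 and Srebf2, at least 1 KO array lies inside the WT range for each gene but Npc1, and each axis spans less than 1 log2 unit.

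Lanosterol is then trimmed and reduced by 9 measured members. Tm7sf2 and Lbr encode the C14 sterol reductases, of which Lbr is also a receptor of the nuclear lamina. Tm7sf2 was 6.68, 6.82 and 6.47 in KO arrays and 6.99, 6.84 and 6.90 in KI arrays, against 6.73, 6.80 and 6.98 as the lowest, median and highest WT values. All KI arrays lay above all KO arrays, by 0.25 on average (SE 0.10, adjusted p = 0.226), and the KO difference from WT was -0.17 (adjusted p = 0.245). The WT values of Tm7sf2 also split by litter, with all KI-litter testes above all KO-litter testes (difference 0.16, adjusted p = 0.891), as for 3.8% of all genes. Against their own littermates KO testes differed by -0.09 (adjusted p = 0.67) and KI testes by -0.00443 (adjusted p = 0.996). Over the alternatives the KI difference from KO ran from 0.11 to 0.33.

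Lbr was 8.47, 8.71 and 8.74 in KO arrays and 8.86, 8.86 and 8.78 in KI arrays, against 8.68, 8.86 and 8.97 as the lowest, median and highest WT values. KO 1 lay below the WT range and the other 2 KO arrays inside it. The KO difference from WT was -0.21 (SE 0.08, adjusted p = 0.142, exact permutation p = 0.0476). It was -0.12 without KO 1 and 0.00445 with the spermatocyte covariate. KI differed from KO by 0.19 (adjusted p = 0.306) and from WT by -0.02. The KI difference from KO ran from 0.00772 to 0.24 over the alternatives, and from 0.11 to 0.24 with single arrays left out.

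Cyp51, the lanosterol demethylase, was 7.59, 7.35 and 7.25 in KO arrays and 7.57, 7.37 and 7.55 in KI arrays, against 6.77, 7.40 and 7.49 as the lowest, median and highest WT values. Its KI difference of 0.20 (SE 0.14, adjusted p = 0.986) was the largest of the members in KI testes. Without WT 5, the array at 6.77, it was 0.10. KO 1, KI 1 and KI 3 lay above the WT range and the other mutant arrays inside it.

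Among the other late genes Sc5d alone was lower on average in KO testes. Higher on average were Msmo1 (0.09) and Nsdhl (0.13), which remove the methyl groups at C4, Hsd17b7 (0.17), a keto-reductase of the same step, Ebp (0.14), the sterol isomerase, and Dhcr7 (0.16), the last reductase of one branch.

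Hsd17b7 was 7.65, 7.62 and 8.01 in KO arrays and 7.58, 7.56 and 7.71 in KI arrays, against 7.38, 7.56 and 7.92 as the lowest, median and highest WT values. KO 3 alone lay above the WT range, and the KO difference was 0.04 without KO 3 and -0.0312 with the spermatocyte covariate. KI differed from KO by -0.15 (SE 0.14, adjusted p = 0.593).

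Dhcr7 was 9.09, 9.17 and 9.34 in KO arrays and 9.30, 9.02 and 9.13 in KI arrays, against 8.87, 9.05 and 9.14 as the lowest, median and highest WT values. KO 2, KO 3 and KI 1 lay above the WT range, with a KO difference of 0.16 (SE 0.09, adjusted p = 0.284) and a KI difference of 0.11 (SE 0.09, adjusted p = 0.986). Sc5d, the sterol desaturase, was 8.30, 8.22 and 7.79 in KO arrays and 8.17, 8.32 and 8.26 in KI arrays, against 8.17, 8.28 and 8.44 as the lowest, median and highest WT values. KO 3 alone lay below the WT range, and the KO difference was -0.17 (SE 0.10, adjusted p = 0.359). In KI testes Msmo1, Nsdhl, Hsd17b7, Ebp, Dhcr7 and Sc5d differed from WT by -0.02 for Sc5d and by 0.02 for Hsd17b7 up to 0.11 for Dhcr7. None of these 6 genes passed in KO or KI testes, and of the 9 late members Lbr alone had an unadjusted p under 0.05 in KO testes.

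No sensing or control gene passed in KO or KI testes. Srebf2, which encodes SREBP-2, the main activator of cholesterol synthesis, was 9.64, 9.67 and 9.93 in KO arrays and 9.82, 9.66 and 9.55 in KI arrays, against 9.46, 9.56 and 9.65 as the lowest, median and highest WT values. KO 2 and KO 3 lay above the WT range, and KO 3 stood highest. The KO difference was 0.19 (SE 0.08, adjusted p = 0.201, exact permutation p = 0.0357) and the KI difference 0.12 (SE 0.08, adjusted p = 0.986). Without KO 3 the KO difference was 0.09, and with the spermatocyte covariate 0.05. Against their own 3 WT littermates all KO arrays were higher, by 0.21 on average (adjusted p = 0.349), as were 10.2% of all genes.

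Insig2, one of the 2 retention factors, was 7.92, 8.31 and 7.90 in KO arrays and 8.34, 8.24 and 8.01 in KI arrays, against 8.14, 8.24 and 8.50 as the lowest, median and highest WT values. KO 1 and KO 3 lay below the WT range and KO 2 inside it. The KO difference was -0.24 (SE 0.11, adjusted p = 0.206, exact permutation p = 0.0952). With the spermatocyte covariate it was 0.0401. Without KO 2 it was -0.38 and just passed (limma adjusted p = 0.0495), where 2323 of all 22180 genes did, against 1078 with all arrays. Insig2 passed in this single instance among the alternatives, and no other member passed in any. Its relative Insig1, itself a known SREBP target, was 9.53, 9.24 and 9.62 in KO arrays and 9.59, 9.63 and 9.47 in KI arrays, against 9.19, 9.41 and 9.69 as the lowest, median and highest WT values. All but KO 2 of the mutant arrays lay above the WT median and all lay within the WT range, with differences of 0.05 in KO and 0.15 in KI testes.

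Srebf1, which serves fatty acid synthesis more than cholesterol, was 7.93, 7.80 and 7.84 in KO arrays and 7.75, 7.71 and 7.82 in KI arrays, against 7.58, 7.78 and 7.88 as the lowest, median and highest WT values. KO 1 alone lay outside the WT range. KO differed from WT by 0.09, KI from WT by -0.01 and KI from KO by -0.10 (SE 0.09, adjusted p = 0.572). Scap, the escort of SREBP, differed from WT by 0.02 in both mutants.

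Among genes of uptake, transport and efflux, Npc1 was the member that separated KO from WT. Npc1 carries cholesterol out of lysosomes. It was 8.29, 8.20 and 8.16 in KO arrays and 8.29, 8.02 and 8.07 in KI arrays, against 7.91, 8.01 and 8.16 as the lowest, median and highest WT values. All KO arrays lay above all WT arrays, although KO 3 and the highest WT array both round to 8.16. This held for 1 of 27 members, while 6.87% of all genes lay above and 4.59% below. The KO difference was 0.19 (SE 0.08, 95% interval 0.02 to 0.37, adjusted p = 0.168, exact permutation p = 0.0357). With the spermatocyte covariate it was -0.0194.

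The WT values of Npc1 differed by litter. The WT testes of KI litters lay below those of KO litters throughout (difference -0.16, adjusted p = 0.891), as for 7.93% of all genes. Against their own littermates, KO arrays were higher by 0.11 (adjusted p = 0.543) and KI arrays by 0.17 (adjusted p = 0.93), with every mutant array above its own WT littermates in both lines. A second Npc1 cluster, with a WT mean of 4.91 in the range of the background genes, differed by -0.10 in KO testes and was not used.

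Abca1, which exports cholesterol from cells, was 9.62, 9.76 and 9.88 in KO arrays and 9.72, 9.63 and 9.68 in KI arrays, against 9.36, 9.64 and 9.81 as the lowest, median and highest WT values. Its WT values split by litter, with all KI-litter testes above all KO-litter testes (difference 0.25, adjusted p = 0.891), as for 3.8% of all genes. KO testes were 0.27 above their own littermates (SE 0.09, adjusted p = 0.215) and 0.15 above all WT testes (adjusted p = 0.386). The effects of the 2 mutants within litters differed by -0.32 (KI effect minus KO effect, adjusted p = 0.847).

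The remaining transport genes did not pass either. Scarb1, the receptor that takes up cholesterol esters from high-density lipoprotein, was 10.44, 10.64 and 10.58 in KO arrays and 10.67, 10.40 and 10.59 in KI arrays, against a WT range of 10.45 to 10.72, with a difference of -0.00 in both. Stard4, a cytosolic sterol carrier, differed by 0.13 in KO and 0.08 in KI testes. Npc2, the partner of Npc1 in the lysosome, was 9.16, 9.10 and 8.76 in KO arrays and 9.02 to 9.12 in KI arrays, against 9.04 to 9.15 in WT arrays, with KO 3 the lowest of the 12 arrays.

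KO 3 was the most extreme array for many members. It had the highest or lowest value of the 12 arrays for 13 of the 27 members, against 6 for KO 1 and 2 for KO 2, and 9 for WT 5, the next array. With 1 array at a time left out, the median member change in KO testes ran from 0.01 to 0.11.

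Of 34 further sterol genes, among them regulators, carriers, oxysterol enzymes and fatty acid enzymes, 26 were measured, and the other 8 were not analysed here. In KO testes 3 rose, none fell and 23 did not pass, and 10 had an unadjusted p under 0.05, all higher in KO (38.5%, against 24.2% of all genes). By comparison 2.52% of all genes rose and 2.34% fell. The median difference was 0.14, against 0.04 over all genes. Without KO 1, KO 3, WT 1, WT 2, WT 3 or WT 5 none of the 26 passed, and the number over all genes was then between 2 and 36, against 1078 with all arrays. Against the 3 KO littermates alone none passed either, where 0.00902% of all genes did. The Sertoli, peritubular and spermatogonial marker means of the KO arrays, given above, lay above their WT ranges and the Leydig means near or above the top of theirs, and 8 macrophage markers averaged 6.94 to 7.24 in KO arrays and 6.88 to 7.21 in KI arrays, against 6.91 to 7.19 in WT arrays. Their part in the 3 increases was not tested.

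**Figure D5:**
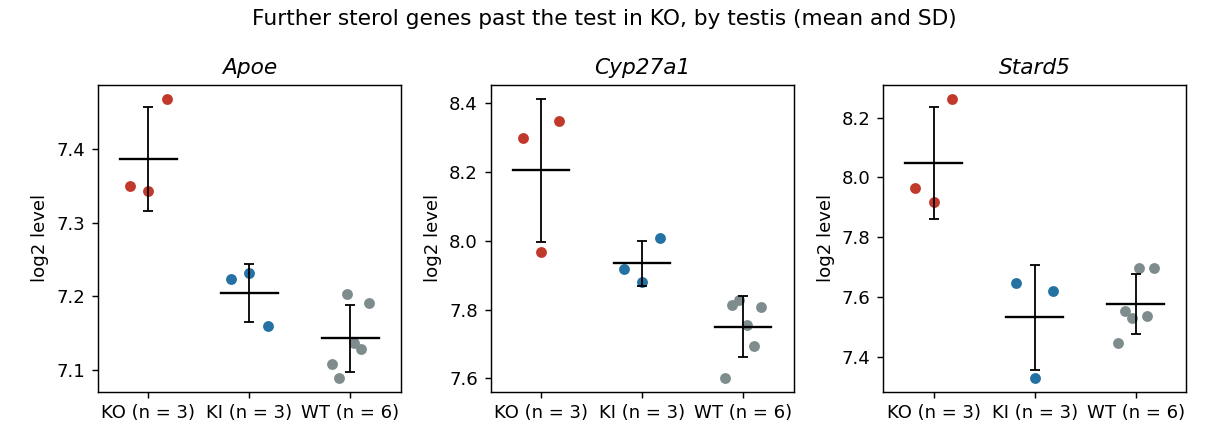
Log2 level of Apoe, Cyp27a1 and Stard5 in each testis (points), with the group mean (horizontal bar) and SD (vertical bar), KO and KI left of WT. For all 3 genes the KO arrays lie above all WT arrays, as for 6.87% of all genes, for example 7.92 to 8.26 against 7.45 to 7.70 for Stard5.

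The 3 genes that rose handle cholesterol outside its synthesis. Stard5, a sterol-binding protein of the START family, was 7.97, 7.92 and 8.26 in KO arrays and 7.65, 7.33 and 7.62 in KI arrays, against 7.45, 7.55 and 7.70 as the lowest, median and highest WT values. All KO arrays lay above every KI and WT array, a 1.39-fold increase over WT (log2 0.47, SE 0.10, adjusted p = 0.0319). With the spermatocyte covariate the difference was 0.19 and did not pass (adjusted p = 0.999). The KI difference from KO was -0.52 (adjusted p = 0.133).

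Cyp27a1, the sterol 27-hydroxylase, was 8.30, 7.97 and 8.35 in KO arrays and 7.92, 7.88 and 8.01 in KI arrays, against 7.60, 7.78 and 7.83 as the lowest, median and highest WT values. It rose 1.37-fold in KO testes (log2 0.45, SE 0.09, adjusted p = 0.031). With the spermatocyte covariate the difference was 0.24 and did not pass (adjusted p = 0.988). KI arrays also lay above all WT arrays, by 0.18 (adjusted p = 0.951), as did 1.79% of all genes.

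Apoe, the lipoprotein that carries cholesterol between cells, was 7.35, 7.34 and 7.47 in KO arrays and 7.22, 7.23 and 7.16 in KI arrays, against 7.09, 7.13 and 7.20 as the lowest, median and highest WT values. It rose 1.18-fold in KO testes (log2 0.24, SE 0.06, adjusted p = 0.0395). With the spermatocyte covariate it was 0.17 and did not pass (adjusted p = 0.993). The KO difference was 0.23 against littermates alone, 0.41 for Stard5 and 0.45 for Cyp27a1, with adjusted p of 0.185, 0.165 and 0.155. The exact permutation p for each of the 3 genes against all WT was 0.0119, the smallest that 84 splits allow. These genes were chosen because they passed on the same arrays, so this p is no separate support. For each of them all KO arrays lay above all WT arrays, as for 6.87% of all genes. No further sterol gene passed in KI testes against WT or KO testes (limma), with 0 of 26 at an unadjusted p under 0.05 against WT (5.24% of all genes) and 7 of 26 against KO (26.9%, against 18% of all genes). Among them Fasn, the fatty acid synthase, differed from WT by 0.14 in KI testes (adjusted p = 0.954) and Vldlr, a lipoprotein receptor, from KO by -0.43 (adjusted p = 0.172).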

How the data were processed

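Whole-testis RNA was hybridised to Affymetrix arrays, 1 per testis. The authors deposited log2 values for 41345 transcript clusters, from 0.9149 to 13.93. Per the submitters' processing notes, the tools were Partek 6.6, Affymetrix Expression Console and RMA, whose roles are not stated, and no filter or annotation release is given. RMA scales arrays to each other, so changes are relative within an array, although the deposited columns do not share 1 distribution (medians 5.74 to 5.82). Arrays give no counts, so precision is limited by their number.

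Of the clusters, 23521 had 1 gene symbol in the platform annotation, 1814 several and 16010 none. A gene with several clusters (1082 genes) was represented by that of highest mean, giving 22180 genes. Groups followed the labels. limma 3.58.1 (lmFit and eBayes, R 4.3.3) was fitted on all 12 arrays with 3 genotype groups, and with 4 label groups for litters, with Benjamini-Hochberg adjustment over all genes at 0.05. Exact permutation tests (two-sided) over all splits of the arrays were enumerated in R for named genes, and tables and figures were made in Python 3.11.15. Named genes were chosen by their values on the same arrays, so their exact p-values are no separate support. The scripts were tested on simulated data. Alternatives were other scalings, a level filter, the mean of a gene's clusters, array weights, an intensity trend, the replicate number as a block, littermates alone and each array left out. A spermatocyte covariate was chosen after seeing the data.

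By the rule for named genes, members described in full were, for KO against all WT, KI against all WT and KI against KO, any that passed, the 4 of lowest p, and the 3 largest changes in each direction. Hmgcs1, Abca1, Scarb1 and Npc2 were added for their role or their values, after values were seen. Other members have their changes given by role. Of the further sterol genes, those that passed were named, or else the 2 of lowest p. Members and lists were chosen with earlier results of these data known. Same-numbered arrays deviated with correlations of -0.03 to 0.16, so the numbers were not taken as pairs.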

Additional observations from a re-analysis of the deposited data

Results flagged for a closer look

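A single array stood away from the other 5 WT arrays for 3 genes, out of 53 members and further sterol genes tested with Dixon's ratio of the gap to the whole range, at its 95% limit for 6 arrays. Chance gives such a gap in about 1 of 20 groups. Cyp51 was 6.77 in WT 5, and the nearest WT array was 7.26 (ratio 0.685). Fdft1 was 9.84 in WT 4, and the nearest was 9.61 (ratio 0.639). Hsd17b4, a peroxisomal enzyme of the further list, was 9.65 in WT 5, and the nearest was 9.61 (ratio 0.666). No cause was tested.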

How the results depend on the processing

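No member passed in any of the 7 comparisons under any alternative run, other than Insig2 in KO against all WT without KO 2. Of all 22180 genes 2323 passed in that setting, against 1078 with all arrays. The number of members called in KO against all WT thus ran from 0 to 1 with single arrays left out. The median member change in KO testes ran from 0.00763 to 0.11 with single arrays left out (0.09 with all), and was -0.0243 with the spermatocyte marker mean as a covariate, under which that of KI against KO was 0.09. Of 413 alternatives for named members, 16 turned the sign. With the covariate, KO against all WT gave 0.00445 for Lbr, -0.0194 for Npc1, -0.0312 for Hsd17b7 and 0.0401 for Insig2, KI against all WT gave 0.0122 for Lbr, and KI against KO gave 0.0261 for Hsd17b7 and 0.0865 for Npc1. With the mean of its clusters Npc1 was 0.0426 in KI against KO. In KI against all WT, with single arrays left out, Insig2 ran from -0.16 to 0.00160, Sc5d from -0.0553 to 0.0177 and Lbr from -0.0509 to 0.0103, and Sc5d was 0.00548 against its own littermates. The cause of these turns was not tested.

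Of the further sterol genes in KO testes, 7 passed among genes at or above the median level, 5 with an intensity trend and robust prior, 0 with the covariate or against littermates alone, and 0 to 5 with single arrays left out. Over all genes, 2459, 2048, 1, 2 and between 2 and 2323 passed in the same order, with the covariate before littermates. Adjusted p over all alternatives ran from 0.011 to 0.993 for Apoe, 0.00466 to 0.988 for Cyp27a1 and 0.00974 to 0.999 for Stard5. With array weights, Apoe missed the threshold (adjusted p = 0.0584). Stard5 passed in KI against KO without KO 2 (-0.58, adjusted p = 0.0393).

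With the replicate number as a block, WT 4 to WT 6 share no number with a mutant array and drop out of the contrast. Differences from WT in this fit therefore rest on WT 1 to WT 3, all of KI litters. In the KO comparison 0 members and 2 further sterol genes passed, where 1468 of all genes did. Apoe (adjusted p = 0.113) and Cyp27a1 (adjusted p = 0.0517) then missed the threshold. Sc5d in the KI comparison was 0.00548, the value it had against KI littermates alone. KO mice and their own littermates share no numbers, so no block could be fitted there. Small differences are limited by 3 arrays a mutant group, and probe positions were not used here.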
